A study of Homo sapiens with 8 samples.

Results

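Untreated MCF-10A cells of the line labelled NeuT were compared with untreated MCF-10A cells of the line labelled Empty. The assay was RNA sequencing after poly(A) selection. The comparison used 4 of the 8 libraries of the series, 2 per line, chosen by their sample titles, and covered all 17693 genes that passed a filter on low counts, of 60617 in the count table. MCF-10A is a human line of mammary epithelial origin that is established in culture and does not form tumours. Per the labels, both lines grew in the same medium with horse serum, epidermal growth factor (EGF), hydrocortisone, insulin and cholera toxin, and the untreated cells served as controls for cells given JG-98, which inhibits Hsp70, at 1 µM for 12 h. What the Empty and NeuT cells carry is not spelled out in the labels, nor is which promoter drives it or whether a line is 1 clone or a pool. The labels also do not say whether the replicates came from separate cultures, so p-values measure only the spread between libraries of a group. That spread was estimated over all 8 libraries, so it includes the JG-98-treated ones. By its design text the series asked about the sensitivity of transformed cells to JG-98, and the untreated comparison gives the state of both lines before the drug.

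NeuT usually denotes an activated rat counterpart of ERBB2, a receptor tyrosine kinase of the EGF receptor family. Receptors of this family pair with each other when EGF-like ligands bind and signal through the RAS-ERK and PI3K-AKT cascades. ERK signalling induces immediate early transcription factors such as FOS and, through them, the phosphatases and Sprouty proteins that dampen it. In the breast, basal epithelial cells, which MCF-10A cells resemble, rest on laminin through hemidesmosomes and express the keratins KRT5 and KRT14. The same cells can secrete interleukins and chemokines that are known as targets of NF-kB, and can turn on genes of the squamous barrier.

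Total counts were 55799562 and 55378816 in the Empty libraries and 56203768 and 55066802 in the NeuT libraries. Levels are given as CPM, the counts scaled to a common library size, with sizes adjusted by TMM (trimmed mean of M-values). A count of 0 in 1 of these libraries leaves room for up to 3 counts, or 0.0526 to 0.0557 CPM on this scale, which covers counting error only. Replicates lay close together, with a median absolute log2 difference of 0.0807 between the Empty libraries and 0.0841 between the NeuT libraries, though they differed by more than sampling noise (chi-square per gene 4.52 and 4.62). Markers of basal mammary epithelium were abundant in every library, and the summed level of 8 such genes was 20837.8 and 19997.6 CPM in Empty and 25330.7 and 24911.5 CPM in NeuT. Of the defining immune markers, CD3E and MS4A1 had 0 counts in all 4 libraries. Other immune markers were detected, and 4 of the 10 listed passed the filter. The summed level of the list is given below. All 37 genes of the mitochondrial chromosome were listed at 0, as were some genes of the major histocompatibility region of chromosome 6, such as TNF, TAP1, C4A, C4B and HLA-DRA, and these zeros are not read as absence of the RNA.

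A gene was called different where edgeR's quasi-likelihood test gave a Benjamini-Hochberg adjusted p-value under 0.05. Of the genes tested, 42.0% were called (7423 genes), with 3748 higher in NeuT (21.2%) and 3675 lower (20.8%). The line differences were mostly small. The median absolute log2 difference was 0.31 over all genes and 0.50 over called genes, and 1771 higher and 1945 lower calls had a size under 0.5. Only 1701 genes (9.61%) were called with a log2 difference of at least 1 in size, 967 of them higher (5.47%) and 734 lower (4.15%). At the far end, 153 genes were higher by a log2 difference of 3 or more and 52 were lower by as much. CPM values of the lines did not overlap for 12951 genes (73.2%), so a lack of overlap by itself marked most genes. With 2 libraries per line, exact permutation of the labels cannot give a p-value under 0.05 for a gene. The calls rest on the fit of all 8 libraries, which combines each gene's own spread with a trend shared across genes.

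**Figure D1:**
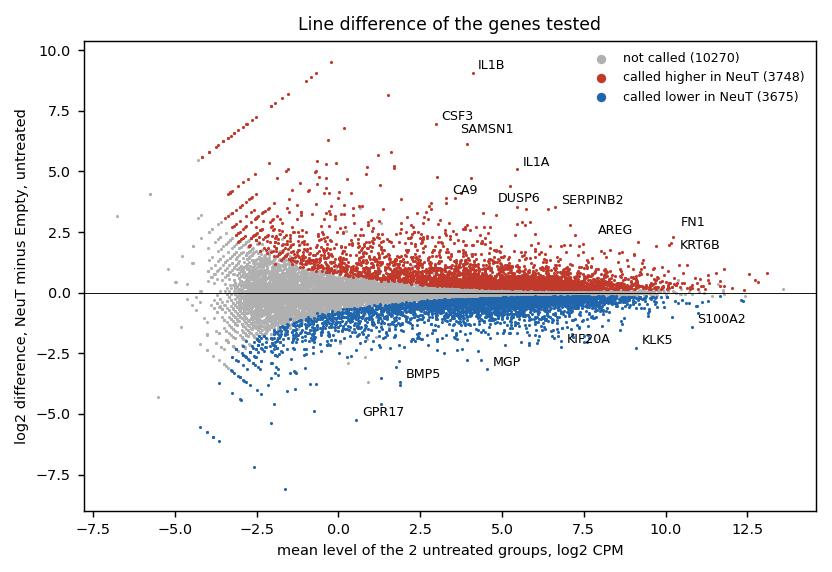
Difference between the lines for the 17693 genes tested: the x axis is the mean of the Empty and NeuT group levels in log2 CPM, the y axis the log2 difference NeuT minus Empty, and each point is a gene. Red points are the 3748 genes called higher in NeuT, blue points the 3675 called lower and grey points those not called, and more genes were called above 3 (153) than below -3 (52).

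Values are given for 6 of the 15 largest rises among protein-coding genes. No function shared by them was tested. Gene coordinates here and below are those listed in the deposited table (GRCh38). SAMSN1, an adaptor protein (ENSG00000155307, chromosome 21, 14485228 to 14658821), was at 0.511 and 0.333 CPM in Empty and 31.2 and 29.1 CPM in NeuT, a log2 difference of 6.15 (with SE 0.16 and an edgeR adjusted p-value of 4.0e-14). CD74, the invariant chain of MHC class II, was at 0.176 and 0.158 CPM in Empty and 6.45 and 6.09 CPM in NeuT (5.21). TREM1, a receptor that amplifies inflammatory signals in myeloid cells, was at 0.0705 and 0.14 CPM in Empty and 6.47 and 5.51 CPM in NeuT (5.80). The choice of these genes required that the lines not overlap, and no Empty library had more than 29 counts of any of these 3 genes. Over 10 immune marker genes the summed level was 27.2 and 29 CPM in Empty and 34.7 and 32.2 CPM in NeuT, with CD14 the only one of 4 tested markers called higher. CALB1, a calcium buffer, was at 1.16 and 1.26 CPM in Empty and 31.8 and 32.2 CPM in NeuT, a log2 difference of 4.72 (with SE 0.12 and an edgeR adjusted p-value of 3.7e-14). BMP6, a ligand of the bone morphogenetic protein family, was at 0.546 and 0.596 CPM in Empty and 16.2 and 15 CPM in NeuT (4.76). The matrix proteoglycan gene VCAN was at 0.141 and 0.0876 CPM in Empty and 3.31 and 3.6 CPM in NeuT (4.89).

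Values are likewise given for 6 of the 15 largest falls. MGP, an inhibitor of calcification (ENSG00000111341, chromosome 12, 14881181 to 14885926), was at 42.3 and 41.6 CPM in Empty and 4 and 5.44 CPM in NeuT, a log2 difference of -3.15 (with SE 0.24 and an edgeR adjusted p-value of 4.3e-05). BMP5 was at 6.61 and 7.12 CPM in Empty and 0.548 and 0.52 CPM in NeuT, a log2 difference of -3.68 (with SE 0.24 and an edgeR adjusted p-value of 2.3e-09), so that BMP5 and BMP6, ligands of the same family, differed in opposite directions. IL34, a ligand of the CSF1 receptor, was at 6.75 and 5.98 CPM in Empty and 0.603 and 1.19 CPM in NeuT (-2.83). NEURL1B, a ubiquitin ligase that acts on Notch ligands, was at 35.4 and 36.1 CPM in Empty and 4.62 and 5.9 CPM in NeuT (-2.77). TSPAN2, a tetraspanin, was at 27.5 and 25.3 CPM in Empty and 3.64 and 4.03 CPM in NeuT (-2.79), and CCN5, a matricellular protein of the CCN family, at 21.9 and 19.7 CPM in Empty and 3.82 and 4.19 CPM in NeuT (-2.38). As for the rises, the choice of these genes required that the lines not overlap.

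The genes were then grouped into 31 lists by function, each described by the number of tested members called in each direction and by the median log2 difference, beside the median of -0.02 over all genes and the shares of 21.2% called higher and 20.8% called lower. Protein-coding genes were called more often, at 49.2% of 13220 (3334 higher, 3176 lower), against 42.0% of all genes. For lists of protein-coding genes the all-gene shares are thus a low baseline. Medians ran from -1.39 for mitosis to 1.91 for colony-stimulating factors and chemokines.

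**Figure D2:**
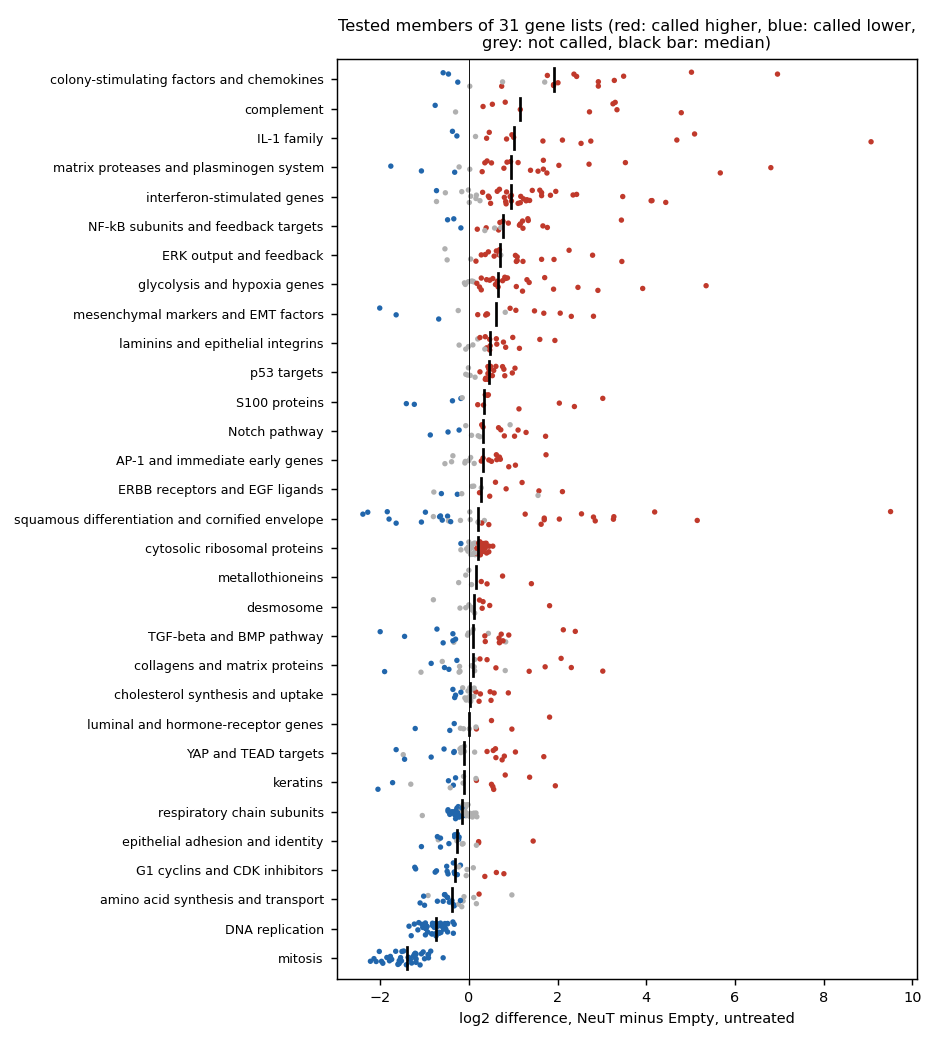
Log2 difference NeuT minus Empty (x axis) of each tested member of 31 gene lists (rows, ordered by their medians). Points are genes, red where called higher, blue where called lower and grey where not called, and black bars are medians, which run from -1.39 for mitosis to 1.91 for colony-stimulating factors and chemokines.

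Genes of DNA replication and mitosis were lower in NeuT. All 40 tested mitosis genes were called lower (background 20.8%), with log2 differences from -2.22 to -0.58, and all 42 tested DNA replication genes were called lower, from -1.35 to -0.33, with a median of -0.75. KIF20A, a kinesin of the central spindle (ENSG00000112984, chromosome 5, 138178719 to 138187723), was at 182.1 and 184.7 CPM in Empty and 40.6 and 38 CPM in NeuT. Its log2 difference was -2.22 (with SE 0.067 and an edgeR adjusted p-value of 3.0e-13), the largest in the list. CCNB1, the cyclin that drives entry into mitosis, was at 289.9 and 295.8 CPM in Empty and 71.1 and 73 CPM in NeuT (-2.02), and CENPF, a kinetochore protein, at 106.0 and 113.7 CPM in Empty and 25.5 and 26.1 CPM in NeuT (-2.09). DLGAP5, a spindle microtubule protein, was at 92.3 and 94.2 CPM in Empty and 20.9 and 21.5 CPM in NeuT (-2.14). Replicates of these 4 genes lay close together, and the lines did not overlap, as for 73.2% of all genes. The proliferation marker MKI67 was at 286.1 and 325.1 CPM in Empty and 96.4 and 88.2 CPM in NeuT (-1.73). In bulk libraries, fewer cycling cells and less RNA per cycling cell cannot be told apart.

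DNA replication genes, which act in S phase, had a smaller median difference than mitosis genes. ORC1, of the origin recognition complex, was at 62.5 and 58.2 CPM in Empty and 25 and 26.4 CPM in NeuT, a log2 difference of -1.23 (with SE 0.096 and an edgeR adjusted p-value of 4.3e-08). TK1, thymidine kinase, was at 132.4 and 127.5 CPM in Empty and 55.5 and 62.8 CPM in NeuT (-1.13), and RRM1, the large subunit of ribonucleotide reductase, at 244.3 and 237.3 CPM in Empty and 107.7 and 109.7 CPM in NeuT (-1.15). GINS2, a subunit of the replicative helicase complex, was at 87.6 and 86.3 CPM in Empty and 41.4 and 41.9 CPM in NeuT (-1.06). TYMS differed by -1.30, but 47.5% of its exonic bases lie within exons of other genes, so its counts are uncertain.

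Promoter windows of these 2 lists were searched for sequence motifs, and 1 window of each list is shown because every tested member of both was called lower. Sequences are from RefSeq (GRCh38.p14) and run from 250 bases before a gene's start to 50 bases after it, and matches were sought on both strands in the 10673 tested protein-coding genes with a window. An E2F motif (TTTGGCGC, TTTCCCGC or TTTCGCGC) was in 54.3% of the 35 windows of the DNA replication list, against 4.52% of all windows. A CHR element (TTTGAA or TTCGAA), known from genes of late cell cycle phases, was in 71.4% of the 35 windows of the mitosis list, against 11.4% of all windows. The CCAAT box (CCAAT) was in 57.1% and 80% of them, against 36.4% of all. Across every gene called lower with a log2 difference of at least 1 in size (360 windows), the CHR element was in 26.9% and the E2F motif in 4.17%. A match is a description of the letters and shows neither binding nor a cause. The windows below lie on the minus strand at chr16:85688905-85689204 for GINS2 and chr14:55191536-55191835 for DLGAP5, are printed 5′ to 3′ on that strand, and carry in capitals the E2F match (31 bases before the start) and a CCAAT box in GINS2 and the CHR and CCAAT matches in DLGAP5.
GINS2: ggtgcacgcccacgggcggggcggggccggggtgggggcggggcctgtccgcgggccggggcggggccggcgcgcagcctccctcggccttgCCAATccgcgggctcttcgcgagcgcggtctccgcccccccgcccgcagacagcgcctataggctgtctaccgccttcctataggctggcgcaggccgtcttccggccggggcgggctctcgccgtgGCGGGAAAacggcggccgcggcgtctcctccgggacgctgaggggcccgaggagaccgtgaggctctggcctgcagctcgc
DLGAP5: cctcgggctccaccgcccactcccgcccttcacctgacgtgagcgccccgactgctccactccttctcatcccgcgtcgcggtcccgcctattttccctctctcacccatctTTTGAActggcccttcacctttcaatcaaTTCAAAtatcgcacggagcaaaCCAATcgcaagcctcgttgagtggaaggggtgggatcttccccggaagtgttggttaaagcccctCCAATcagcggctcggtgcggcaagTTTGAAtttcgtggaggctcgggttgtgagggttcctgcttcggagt

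**Figure D3:**
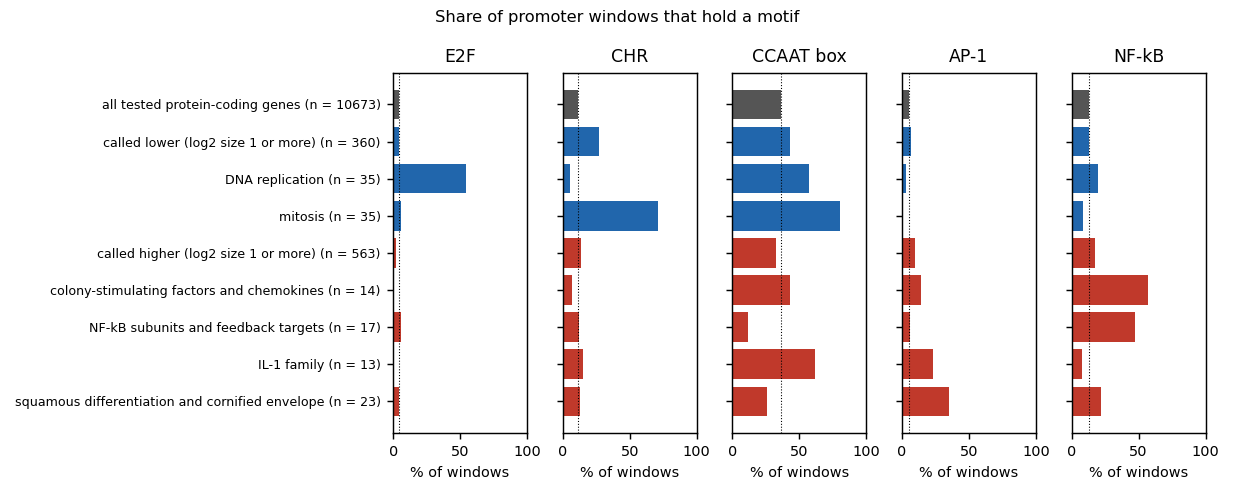
Share of 300-base promoter windows that hold each of 5 motifs (x axis, percent, 1 panel per motif) in all tested protein-coding genes, in genes called with a log2 difference of at least 1 in size and in 6 gene lists (rows, with the number of windows), in blue for sets with more lower than higher calls and red for sets with more higher than lower calls. The dotted line is the share in all 10673 windows, and E2F stands out in the DNA replication list (54.3%), CHR in the mitosis list (71.4%) and NF-kB in the chemokine list (57.1%).

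Regulators of G1 were mostly lower. Of 19 tested G1 cyclins, kinases, inhibitors and E2F factors, 12 were called lower (63.2%, against 20.8% of all genes), with a median of -0.32. Another 3 were called higher (15.8%), a share below the 21.2% of all genes. The 3 higher genes were CCND1 (409.2 and 399.1 CPM in Empty and 632.9 and 608.4 CPM in NeuT, log2 difference 0.62), which encodes cyclin D1 and is a known target of ERK signalling, its partner kinase CDK6 (0.36), and CDKN1A. CDKN1A, the CDK inhibitor p21 (ENSG00000124762, chromosome 6, 36676460 to 36687339), was at 443.1 and 448.3 CPM in Empty and 778.8 and 762.3 CPM in NeuT, a log2 difference of 0.79 (with SE 0.051 and an edgeR adjusted p-value of 1.6e-09). Among the lower genes were E2F2 (40.7 and 38.8 CPM in Empty and 18.1 and 16.5 CPM in NeuT, -1.20), E2F1 (-0.73) and the INK4-class inhibitor CDKN2C (18.5 and 18 CPM in Empty and 8.3 and 7.4 CPM in NeuT, -1.22). The inhibitors CDKN2A and CDKN2B had at most 2 counts in any of the 4 libraries, and MTAP, their neighbour on chromosome 9, was at 0.0352 and 0.0526 CPM in Empty and 0.329 and 0.39 CPM in NeuT.

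Targets of p53 were higher in NeuT in most cases, with 18 of 23 called higher, none lower and a median of 0.45. RRM2B, the p53-inducible subunit of ribonucleotide reductase, was at 85.8 and 91.5 CPM in Empty and 175.9 and 174.0 CPM in NeuT, a log2 difference of 0.98 (with SE 0.057 and an edgeR adjusted p-value of 5.2e-10). TIGAR, a regulator of glycolysis, was at 11.4 and 9.78 CPM in Empty and 22 and 21.5 CPM in NeuT (1.04), and ZMAT3, an RNA-binding protein, at 56.5 and 62.2 CPM in Empty and 104.6 and 103.3 CPM in NeuT (0.81). CCNG1 and AEN were not called, with log2 differences of -0.07 and 0.03. CDKN1A belongs to this list and to the G1 list.

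Of the ligands of the EGF receptor family, 5 were called higher in NeuT and 1 lower. Of 15 tested receptors, ligands and inhibitors, 7 were called higher and 2 lower, with a median of 0.28. AREG, amphiregulin (ENSG00000109321, chromosome 4, 74445136 to 74455005), was at 219.1 and 207.9 CPM in Empty and 918.8 and 927.0 CPM in NeuT, a log2 difference of 2.11 (with SE 0.065 and an edgeR adjusted p-value of 3.6e-13). HBEGF, the heparin-binding ligand, was at 36.1 and 33.8 CPM in Empty and 106.8 and 102.9 CPM in NeuT, a log2 difference of 1.58 (with SE 0.32 and an edgeR adjusted p-value of 0.0189), EREG, epiregulin, at 11.9 and 11.7 CPM in Empty and 27 and 27.1 CPM in NeuT (1.20), and TGFA at 85.9 and 80.8 CPM in Empty and 153.5 and 145.6 CPM in NeuT (0.84). The lines did not overlap in these 4 ligands, which were named because they were called, nor in 73.2% of all genes. ERBB2 was not called, at 83.7 and 84.9 CPM in Empty and 87.9 and 89.7 CPM in NeuT, a log2 difference of 0.07 (with SE 0.058 and an edgeR adjusted p-value of 0.329). The table lists human genes, and how reads of a rat gene would be counted is not given in the sources used here. Of the other receptors, EGFR was at 357.0 and 385.1 CPM in Empty and 445.3 and 428.9 CPM in NeuT, a log2 difference of 0.24 (with SE 0.08 and an edgeR adjusted p-value of 0.0283), and ERBB3 was lower, at 32.2 and 32.5 CPM in Empty and 21 and 21.3 CPM in NeuT (-0.62). The neuregulin gene NRG1 was higher (0.47), the ligand EPGN was lower (-0.26), and ERRFI1, a feedback inhibitor of the receptors, was higher (0.60).

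Genes known as outputs and dampers of ERK signalling were higher as a group, with 18 of 22 called higher, none lower and a median of 0.70. DUSP6, the phosphatase that acts on ERK in the cytoplasm (ENSG00000139318, chromosome 12, 89347235 to 89352501), was at 14 and 14.4 CPM in Empty and 160.2 and 152.1 CPM in NeuT, a log2 difference of 3.45 (with SE 0.066 and an edgeR adjusted p-value of 1.5e-15). Exons of other genes share 28.6% of its exonic bases, which makes its exact level uncertain. DUSP1 was at 137.6 and 134.6 CPM in Empty and 427.1 and 419.1 CPM in NeuT (1.64) and DUSP5 at 16.2 and 15.8 CPM in Empty and 37.1 and 37.3 CPM in NeuT (1.22). All 6 Sprouty and SPRED genes in the list were called higher, 3 of which are given here. SPRY4 was at 24 and 23.8 CPM in Empty and 50.8 and 51.2 CPM in NeuT (1.09), SPRED3 at 1.23 and 1.1 CPM in Empty and 8.28 and 7.89 CPM in NeuT (2.79), and SPRY1, though low, at 0.74 and 0.876 CPM in Empty and 3.29 and 4.49 CPM in NeuT (2.26). ETV1, a transcription factor of the PEA3 group, was at 1.76 and 2.45 CPM in Empty and 8.5 and 7.46 CPM in NeuT (1.92).

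Immediate early genes were less uniform, with 11 of 19 called higher, none lower and a median of 0.32. FOS was at 27.8 and 31.1 CPM in Empty and 95.5 and 101.0 CPM in NeuT, a log2 difference of 1.74 (with SE 0.097 and an edgeR adjusted p-value of 4.4e-09). MYC was at 347.2 and 336.7 CPM in Empty and 526.3 and 523.8 CPM in NeuT (0.62), JUNB was higher by 0.69, and IER5, known from the response to serum and heat, by 1.05. FOSL1, an AP-1 subunit often linked to ERK activity, was not called, at 181.1 and 178.2 CPM in Empty and 185.5 and 183.1 CPM in NeuT (0.04). EGR1, another immediate early target of ERK, was also not called, at 20.8 and 27.3 CPM in Empty and 17.4 and 15.6 CPM in NeuT, with a log2 difference of -0.54 (with SE 0.32 and an edgeR adjusted p-value of 0.254). Both NeuT libraries lay below both Empty libraries for EGR1, within the error of the fit.

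**Figure D4:**
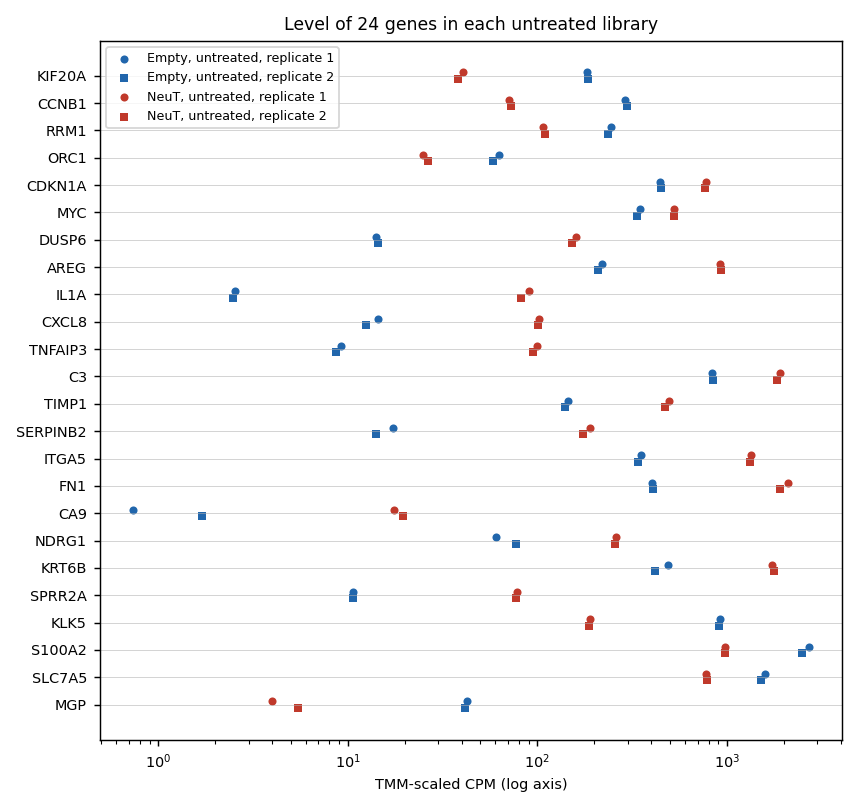
Level of 24 named genes in each of the 4 untreated libraries, in TMM-scaled CPM on a log axis (x axis). Circles are replicate 1 and squares replicate 2, blue for Empty and red for NeuT, and the 2 lines do not overlap in these genes, most of which were named because they were called, nor in 73.2% of all genes tested.

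Most members of the interleukin-1 family were higher in NeuT. Of 15 tested ligands and receptors, 12 were called higher and 2 lower, with a median of 1.01. Some passed the filter through their NeuT counts, and with at least 10 counts in every untreated library 9 of 12 were called higher and 2 lower, with a median of 0.92. IL1A, the interleukin that epithelial cells store (ENSG00000115008, chromosome 2, 112773915 to 112784590), was at 2.54 and 2.49 CPM in Empty and 89.9 and 81.7 CPM in NeuT, a log2 difference of 5.09 (with SE 0.18 and an edgeR adjusted p-value of 2.2e-08). The decoy receptor IL1R2 was at 3.35 and 3.35 CPM in Empty and 19.3 and 19.4 CPM in NeuT (2.53), and IL1RL1, the receptor for interleukin-33, at 3.45 and 3.21 CPM in Empty and 14.4 and 14.4 CPM in NeuT (2.11). IL36RN, an antagonist of interleukin-36, was low in both lines, at 0.282 and 0.14 CPM in Empty and 1.3 and 1.58 CPM in NeuT. IL18 went the other way, at 197.3 and 197.0 CPM in Empty and 151.2 and 153.3 CPM in NeuT, a log2 difference of -0.37 (with SE 0.063 and an edgeR adjusted p-value of 1.2e-04), as did the inhibitory receptor SIGIRR (-0.27), and in each fit without 1 of the 4 libraries 1 of these 2 lower calls was left.

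Chemokines and colony-stimulating factors had the highest median of any list, 1.91, with 13 of 19 called higher and 3 lower. CXCL8, which attracts neutrophils (ENSG00000169429, chromosome 4, 73740541 to 73743716), was at 14.5 and 12.4 CPM in Empty and 102.4 and 100.9 CPM in NeuT, a log2 difference of 2.92 (with SE 0.16 and an edgeR adjusted p-value of 3.2e-06). CXCL3, of the same receptor class, was at 4.12 and 3.84 CPM in Empty and 40.6 and 36.6 CPM in NeuT, a log2 difference of 3.28 (with SE 0.13 and an edgeR adjusted p-value of 6.9e-11). CXCL10 and IL6 were near the detection limit in Empty, with CXCL10 at 0.0352 and 0 CPM in Empty and 0.585 and 0.705 CPM in NeuT and IL6 at 0.106 and 0 CPM in Empty and 0.493 and 0.742 CPM in NeuT. The lower genes were CXCL16 (58.3 and 54.2 CPM in Empty and 37.8 and 37.7 CPM in NeuT, -0.58), IL32 (-0.46) and CCL28 (-0.25). Where at least 10 counts were required in every untreated library, 8 members were called higher and 3 lower, with fewer genes tested.

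Feedback genes and subunits of NF-kB were mostly higher, with 15 of 21 called higher, 3 lower and a median of 0.77. TNFAIP3, the ubiquitin-editing enzyme A20 (ENSG00000118503, chromosome 6, 137867214 to 137883312), was at 9.25 and 8.71 CPM in Empty and 100 and 94.4 CPM in NeuT, a log2 difference of 3.44 (with SE 0.16 and an edgeR adjusted p-value of 4.8e-07). BIRC3, an inhibitor of apoptosis, was at 89 and 80.6 CPM in Empty and 269.1 and 272.1 CPM in NeuT (1.67), and TNIP1, a partner of A20, at 261.9 and 249.5 CPM in Empty and 623.8 and 659.7 CPM in NeuT (1.33). RELB, a subunit of the non-canonical pathway, was at 16 and 13.5 CPM in Empty and 34.9 and 39.7 CPM in NeuT (1.34). The subunit NFKB1 (-0.18), the inhibitor NFKBIB (-0.34) and REL (-0.48), whose exons share 43.3% of their bases with other genes, were lower. The adjusted p-value of NFKB1 in edgeR was 0.0489, and in each fit without 1 of the 4 libraries 1 of the 3 lower calls was left.

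A match to the NF-kB consensus, searched on both strands with overlapping matches counted once per window, was in 57.1% of 14 windows of the chemokine list and 47.1% of 17 windows of the NF-kB list, against 13.1% of all windows. In the interleukin-1 list 1 of 13 windows held this match (7.69%), 3 held the AP-1 motif (TGANTCA; 23.1%, against 4.95% of all windows) and 61.5% the CCAAT box (against 36.4%). Differences between lists were not tested. Among all genes called higher with a log2 difference of at least 1 (563 windows), NF-kB matches were in 17.1%, AP-1 in 9.77% and a TATA box (TATAAA) in 14.2%, and the TATA box was in 6.09% of all windows. The windows of CXCL3 (chr4:74038640-74038939, minus strand), TNFAIP3 (chr6:137867009-137867308, plus strand) and IL1A (chr2:112784444-112784743, minus strand) are shown as examples of called genes that hold a match, with NF-kB matches in capitals in the first 2 and AP-1 matches in IL1A.
CXCL3: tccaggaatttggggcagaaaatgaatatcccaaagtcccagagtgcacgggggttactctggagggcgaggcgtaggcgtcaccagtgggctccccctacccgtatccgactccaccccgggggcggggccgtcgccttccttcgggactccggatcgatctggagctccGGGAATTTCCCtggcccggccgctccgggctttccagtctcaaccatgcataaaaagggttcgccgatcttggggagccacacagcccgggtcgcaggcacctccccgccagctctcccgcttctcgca
TNFAIP3: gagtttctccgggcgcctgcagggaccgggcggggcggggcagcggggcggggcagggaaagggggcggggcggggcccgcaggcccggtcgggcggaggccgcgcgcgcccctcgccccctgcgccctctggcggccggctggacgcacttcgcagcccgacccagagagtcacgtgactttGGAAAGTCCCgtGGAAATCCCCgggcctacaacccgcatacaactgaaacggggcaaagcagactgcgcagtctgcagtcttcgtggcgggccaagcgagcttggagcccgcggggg
IL1A: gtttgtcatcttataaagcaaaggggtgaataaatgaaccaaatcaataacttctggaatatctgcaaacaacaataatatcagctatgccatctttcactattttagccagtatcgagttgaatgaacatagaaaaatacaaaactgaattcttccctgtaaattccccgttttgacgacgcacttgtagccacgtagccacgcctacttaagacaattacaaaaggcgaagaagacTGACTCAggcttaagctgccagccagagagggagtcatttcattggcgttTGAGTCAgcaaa

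Interferon-stimulated genes were higher in NeuT, with 32 of 42 called higher, 1 lower and a median of 0.94. With at least 10 counts in every untreated library, 27 of 37 were called higher and 1 lower, with a median of 0.85. IFI6, an antiviral protein of the mitochondria and endoplasmic reticulum (ENSG00000126709, chromosome 1, 27666064 to 27672198), was at 1.41 and 1.47 CPM in Empty and 23.5 and 27.2 CPM in NeuT, a log2 difference of 4.13 (with SE 0.14 and an edgeR adjusted p-value of 1.0e-12). IFI44L was at 1.46 and 1.53 CPM in Empty and 8.26 and 7.87 CPM in NeuT (2.43), OAS2, a sensor of double-stranded RNA, at 0.352 and 0.0701 CPM in Empty and 5.25 and 4.01 CPM in NeuT (4.44), and BST2, which tethers viruses, at 0.211 and 0.0701 CPM in Empty and 2.5 and 2.41 CPM in NeuT (4.11). Empty levels of these 4 genes were low, and the Empty libraries differed several-fold in OAS2 and BST2, though both stayed below NeuT. IFITM2 was the member called lower, at 73.5 and 74.5 CPM in Empty and 45.8 and 43.3 CPM in NeuT (-0.73). IFIT5 and OAS3 were not called, with log2 differences of -0.01 and 0.04.

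Complement genes were higher in 9 of 11 tested members and lower in 1, with a median of 1.16. C3, the central component (ENSG00000125730, chromosome 19, 6677704 to 6730562), was at 830.6 and 842.8 CPM in Empty and 1897.8 and 1836.7 CPM in NeuT, a log2 difference of 1.16 (with SE 0.054 and an edgeR adjusted p-value of 3.1e-11). CLU, clusterin, was at 6.43 and 5 CPM in Empty and 36.3 and 38.9 CPM in NeuT (2.72). The proteases C1R and C1S were low in both lines, with C1R at 0.211 and 0.21 CPM in Empty and 1.96 and 2.1 CPM in NeuT, and C5 was lower, at 2.62 and 2.59 CPM in Empty and 1.63 and 1.45 CPM in NeuT (-0.76), a call lost without Empty replicate 1 or NeuT replicate 2. This median depended on the genes tested. With at least 10 counts in every untreated library it was 0.99, with 7 of 8 genes called higher and 1 lower. It was 1.95 above that of all genes in a fit of the 4 untreated libraries alone, where the low gene CFI, with 32.0% of its exonic bases within other genes, no longer passed the filter.

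Squamous genes were called in both directions. Of 35 tested genes of squamous differentiation, 15 were called higher (background 21.2%) and 12 lower (background 20.8%), with a median of 0.21. Some members passed the filter through their NeuT counts, and with at least 10 counts in every untreated library the list had 12 higher and 12 lower calls and a median of 0.04. Under JG-98 its median was 0.00. Among the higher, SPRR2A, a cross-linked component of the cornified envelope (ENSG00000241794, chromosome 1, 153056120 to 153057512), was at 10.7 and 10.7 CPM in Empty and 77.9 and 76.7 CPM in NeuT, a log2 difference of 2.85 (with SE 0.1 and an edgeR adjusted p-value of 1.1e-11). SERPINB4 was at 0.757 and 1.23 CPM in Empty and 9.81 and 9.37 CPM in NeuT (3.27) and LCE3D, a late envelope protein, at 0.141 and 0.21 CPM in Empty and 6.8 and 5.83 CPM in NeuT (5.15), while its neighbour LCE3E had 0 counts in both Empty libraries and stood at 1.94 and 1.47 CPM in NeuT. Of 6 kallikreins, proteases that shed the outer layer, 5 were called lower. KLK5 was at 922.7 and 906.1 CPM in Empty and 189.2 and 186.8 CPM in NeuT, a log2 difference of -2.28 (with SE 0.062 and an edgeR adjusted p-value of 7.0e-14), KLK6 at 31.7 and 32.4 CPM in Empty and 5.99 and 6.25 CPM in NeuT (-2.39), and KLK7 at 222.4 and 230.8 CPM in Empty and 66.9 and 59.6 CPM in NeuT (-1.84). Involucrin (IVL), a standard marker of this programme, was not called, at 33 and 33.5 CPM in Empty and 34.1 and 33.9 CPM in NeuT (0.03, or -0.04 with total counts in place of TMM).

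An AP-1 motif was in 34.8% of the 23 windows of the squamous list, against 4.95% of all windows. The SPRR2A window (chr1:153057463-153057762, minus strand) is shown as the most raised SPRR2 gene of the list, with the AP-1 match, 197 bases before the start, in capitals.
SPRR2A: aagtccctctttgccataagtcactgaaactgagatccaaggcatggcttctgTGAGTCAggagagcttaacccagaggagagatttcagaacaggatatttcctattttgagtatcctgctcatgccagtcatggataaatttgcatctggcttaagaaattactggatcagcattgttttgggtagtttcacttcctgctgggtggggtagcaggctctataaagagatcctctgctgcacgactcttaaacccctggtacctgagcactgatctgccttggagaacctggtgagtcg

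Keratins were called in both directions, with 7 of 17 called higher (41.2%, against 21.2% of all genes) and 5 lower (29.4%, against 20.8%). The lower share is near the background. The median of -0.12 changed sign to 0.17 above that of all genes where at least 10 counts were required in every untreated library. KRT6B, a keratin of activated keratinocytes, was at 490.8 and 420.0 CPM in Empty and 1740.6 and 1771.4 CPM in NeuT, a log2 difference of 1.95 (with SE 0.07 and an edgeR adjusted p-value of 2.9e-12). Its relative KRT6A was at 6309.8 and 6306.1 CPM in Empty and 11491.5 and 10835.6 CPM in NeuT (0.82), and reads of the near-identical KRT6 genes may be split between them. The basal keratin KRT5 was higher, at 5517.7 and 5486.5 CPM in Empty and 8054.8 and 7977.0 CPM in NeuT (0.54), and its partner KRT14 was not called, at 2945.8 and 2794.6 CPM in Empty and 2598.3 and 2675.9 CPM in NeuT (-0.12). KRT80 was lower, at 318.0 and 309.4 CPM in Empty and 72.6 and 78.5 CPM in NeuT (-2.05), as was KRT10, a keratin of suprabasal cells, at 210.5 and 218.2 CPM in Empty and 67 and 63.3 CPM in NeuT (-1.72).

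S100 proteins, small calcium-binding proteins encoded mainly beside the envelope genes on chromosome 1, were called higher in 9 of 14 cases and lower in 4. S100A9, which forms the antimicrobial complex calprotectin with S100A8, was at 8.47 and 7.43 CPM in Empty and 32.6 and 33 CPM in NeuT, a log2 difference of 2.04 (with SE 0.1 and an edgeR adjusted p-value of 7.1e-11), and its partner S100A8 at 1.66 and 1.24 CPM in Empty and 12.3 and 11.2 CPM in NeuT (3.02). S100A6 was at 1048.1 and 960.4 CPM in Empty and 2176.8 and 2215.3 CPM in NeuT (1.13). S100A2 was lower, at 2700.5 and 2498.8 CPM in Empty and 975.3 and 980.2 CPM in NeuT, a log2 difference of -1.41 (with SE 0.096 and an edgeR adjusted p-value of 5.0e-07). Without Empty replicate 1, or without NeuT replicate 1, the lower calls in this list fell from 4 to 1, and without either of the other libraries to 2.

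Most matrix proteases and their inhibitors were higher in NeuT. Of 23 tested genes of matrix proteolysis and the plasminogen system, 18 were called higher and 3 lower, with a median of 0.94. With at least 10 counts in every untreated library, 16 of 21 were called higher and 3 lower. SERPINB2, the inhibitor PAI-2 (ENSG00000197632, chromosome 18, 63871692 to 63903888), was at 17.4 and 14 CPM in Empty and 189.0 and 174.9 CPM in NeuT, a log2 difference of 3.53 (with SE 0.26 and an edgeR adjusted p-value of 3.6e-04). PLAT, tissue plasminogen activator, was at 1.32 and 1.23 CPM in Empty and 7.42 and 9.3 CPM in NeuT (2.71), and SERPINE2, a protease inhibitor, at 72.1 and 67.4 CPM in Empty and 297.5 and 272.2 CPM in NeuT (2.03). TIMP1, an inhibitor of metalloproteinases, was at 144.4 and 140.2 CPM in Empty and 494.0 and 471.3 CPM in NeuT (1.76). The stromelysin MMP10 was at 0.0705 and 0.105 CPM in Empty and 4.84 and 4.31 CPM in NeuT, and its neighbour MMP1, an interstitial collagenase, at 0 and 0.0351 CPM in Empty and 2.01 and 2.45 CPM in NeuT. MMP7, matrilysin, was lower, at 19.1 and 18 CPM in Empty and 5.85 and 5.12 CPM in NeuT (-1.76), and so was the membrane protease ST14 (-0.32).

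Genes of the epithelial base were higher, with 14 of 20 laminin, integrin and hemidesmosome genes called higher, none lower and a median of 0.47. In a fit of the 4 untreated libraries alone, 17 were called higher. ITGA5, the fibronectin receptor subunit (ENSG00000161638, chromosome 12, 54395261 to 54419266), was at 353.8 and 341.3 CPM in Empty and 1333.3 and 1325.7 CPM in NeuT, a log2 difference of 1.94 (with SE 0.063 and an edgeR adjusted p-value of 5.0e-13). COL17A1, a transmembrane collagen of hemidesmosomes, was at 263.5 and 256.6 CPM in Empty and 791.9 and 787.2 CPM in NeuT (1.6). The laminin chain gene LAMA3 was at 2419.3 and 2313.7 CPM in Empty and 4864.1 and 4539.2 CPM in NeuT (0.99), and LAMB3 at 2198.3 and 2111.6 CPM in Empty and 3810.3 and 3849.7 CPM in NeuT (0.83). Plectin (PLEC) was not called, at 2680.8 and 2813.0 CPM in Empty and 3515.8 and 3530.5 CPM in NeuT, a log2 difference of 0.36 (with SE 0.13 and an edgeR adjusted p-value of 0.0691), nor was CD151 (0.09). Collagens and other matrix proteins were mixed, with 8 of 24 called higher, 5 lower and a median of 0.10. The share called lower, 20.8%, equals that of all genes, and without NeuT replicate 2 there were 3 lower calls. The median less that of all genes was 0.03 without Empty replicate 1. FN1, fibronectin, was at 404.8 and 407.9 CPM in Empty and 2114.0 and 1905.7 CPM in NeuT, a log2 difference of 2.31 (with SE 0.098 and an edgeR adjusted p-value of 9.1e-09), while COL12A1 was lower, at 20.1 and 18.9 CPM in Empty and 5.79 and 4.68 CPM in NeuT (-1.90), and THBS1, thrombospondin, as well (-0.55).

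Adhesion and identity genes of epithelia were mostly lower, with 10 of 18 called lower, 3 higher and a median of -0.26. Without Empty replicate 2 the higher calls dropped to 1. CLDN7, a claudin of tight junctions, was at 261.6 and 256.3 CPM in Empty and 192.0 and 186.2 CPM in NeuT, a log2 difference of -0.45 (with SE 0.052 and an edgeR adjusted p-value of 2.0e-06), the adhesion molecule gene EPCAM differed by -1.07, and GRHL2, a transcription factor of epithelial identity, was at 108.2 and 105.6 CPM in Empty and 67.3 and 63.2 CPM in NeuT (-0.71). E-cadherin (CDH1) was higher, at 880.3 and 873.1 CPM in Empty and 1052.6 and 991.8 CPM in NeuT (0.22), as was the basal transcription factor TP63, at 2.7 and 2.79 CPM in Empty and 7.26 and 7.74 CPM in NeuT (1.45). Desmosome genes were called higher in 5 of 12 cases and lower in none, with a median of 0.11.

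Mesenchymal genes and factors of epithelial-mesenchymal transition were called higher in 11 of 16 cases and lower in 3, with a median of 0.62. ZEB2 was at 3.07 and 3.84 CPM in Empty and 14.7 and 14.1 CPM in NeuT, a log2 difference of 2.06 (with SE 0.12 and an edgeR adjusted p-value of 7.4e-10), ZEB1 at 2.06 and 1.75 CPM in Empty and 4.97 and 5.66 CPM in NeuT (1.48) and SNAI2 at 82.5 and 80.2 CPM in Empty and 174.1 and 165.6 CPM in NeuT (1.06). SNAI1 went the other way, at 7.96 and 8.19 CPM in Empty and 2.03 and 1.97 CPM in NeuT, a log2 difference of -2.01 (with SE 0.14 and an edgeR adjusted p-value of 6.0e-09), as did the receptor kinase AXL, at 52.8 and 46.1 CPM in Empty and 15.7 and 16.1 CPM in NeuT (-1.64). Vimentin (VIM) was listed at 0.705 and 0.228 CPM in Empty and 4.2 and 2.36 CPM in NeuT, and 24.3% of its exonic bases lie in exons of other genes. Vimentin is usually abundant in cultured MCF-10A cells, so this level, and the place of VIM among the 11 higher calls, is uncertain. N-cadherin (CDH2) was not called (-0.24). Over 9 fibroblast markers the summed level was 84.5 and 81.5 CPM in Empty and 176.1 and 165.2 CPM in NeuT, PDGFRA was at 0 in all 4 libraries, and LUM, THY1 and COL3A1 had at most 10 counts in any of them. Most of that difference was DCN, decorin, at 3.19 and 3.58 CPM in Empty and 75.7 and 69.5 CPM in NeuT, a gene singled out after its values were seen. The part of such markers in the mesenchymal list was not tested.

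Genes of the TGF-beta and BMP pathway were called in both directions, with 10 of 25 called higher (40%, against 21.2% of all genes), 7 lower (28%, against 20.8%) and a median of 0.10. The lower share is near the background. INHBA, which forms activin A, was at 47.2 and 47.6 CPM in Empty and 249.4 and 251.4 CPM in NeuT, a log2 difference of 2.40 (with SE 0.21 and an edgeR adjusted p-value of 4.8e-04), whereas INHBB, its sister chain, was at 12.9 and 13 CPM in Empty and 2.98 and 3.49 CPM in NeuT (-2.0). BMP2 was at 8.37 and 7.27 CPM in Empty and 34.5 and 34.1 CPM in NeuT (2.13), and TGFB2 was lower, at 61.4 and 55.4 CPM in Empty and 21.5 and 21.3 CPM in NeuT (-1.45). The receptor TGFBR2 was higher (0.73). Without NeuT replicate 2 the lower calls in this list dropped from 7 to 3. In the Notch pathway 9 of 17 genes were called higher and 3 lower, with a median of 0.32. The ligand JAG1 was at 52.8 and 56.4 CPM in Empty and 115.7 and 107.4 CPM in NeuT (1.03), the receptor NOTCH3 at 3.03 and 2.8 CPM in Empty and 7.57 and 6.76 CPM in NeuT (1.29) and the glycosyltransferase LFNG, which modifies Notch, at 15.1 and 15.7 CPM in Empty and 8.19 and 8.7 CPM in NeuT (-0.87).

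Glycolysis and hypoxia genes were called higher in 24 of 30 cases and lower in none, with a median of 0.65. NDRG1, a hypoxia-induced gene, was at 60.6 and 77.1 CPM in Empty and 261.5 and 256.4 CPM in NeuT, a log2 difference of 1.91 (with SE 0.093 and an edgeR adjusted p-value of 5.2e-09). CA12, a carbonic anhydrase, was at 10.7 and 12 CPM in Empty and 86.7 and 84.3 CPM in NeuT (2.91), and its relative CA9 at 0.74 and 1.7 CPM in Empty and 17.5 and 19.6 CPM in NeuT (3.92), with 36.1% of its exonic bases shared with other genes. PFKFB4, which tunes glycolytic flux, was at 12.9 and 15.5 CPM in Empty and 46 and 47 CPM in NeuT (1.71), and EGLN3, an oxygen sensor, at 1.18 and 1.09 CPM in Empty and 6.62 and 5.86 CPM in NeuT (2.46). The glycolytic enzymes GPI and ENO1 were not called, with log2 differences of -0.10 and 0.11.

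Nuclear-encoded subunits of the respiratory chain leaned the other way, with 19 of 40 called lower, none higher and a median of -0.16. UQCRC2, of complex III, was at 377.8 and 385.7 CPM in Empty and 269.6 and 283.3 CPM in NeuT, a log2 difference of -0.47 (with SE 0.058 and an edgeR adjusted p-value of 4.9e-06), and ATP5F1B, of the ATP synthase, at 1104.6 and 1074.0 CPM in Empty and 827.7 and 842.5 CPM in NeuT (-0.38). Leaving out 1 library at a time left 10 to 12 of these lower calls. Amino acid synthesis and transport genes were lower in 14 of 23 cases and higher in 1, with a median of -0.38. The higher call was lost without Empty replicate 2 or NeuT replicate 1. SLC7A5, the large neutral amino acid transporter (ENSG00000103257, chromosome 16, 87830023 to 87869507), was at 1597.3 and 1518.4 CPM in Empty and 771.4 and 789.0 CPM in NeuT, a log2 difference of -1.0 (with SE 0.07 and an edgeR adjusted p-value of 1.1e-08), and its partner chain SLC3A2 at 335.3 and 318.8 CPM in Empty and 200.9 and 200.1 CPM in NeuT (-0.71). CTH, of cysteine synthesis, was at 6.17 and 5.35 CPM in Empty and 2.63 and 2.73 CPM in NeuT (-1.10).

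The line differences were compared with those between the JG-98-treated lines, which use the other 4 libraries. There 7380 genes were called (41.7%), and 5750 were called in the same direction in both comparisons, which is 77.5% of the untreated calls and 77.9% of the calls under JG-98. Of the untreated calls, 97.4% (7227) had the same sign under JG-98, and 3 genes were called in opposite directions. Across the 17693 genes, which are not independent replicates, the log2 differences had a Pearson r of 0.772 and a Spearman rho of 0.755. Both comparisons were read from 1 fit with shared dispersions but no shared libraries. The mitosis list had a median of -1.48 under JG-98 with all 40 members called lower, and KIF20A differed by -2.35. The chemokine list had a median of 2.02, and IL1A differed by 4.96. The amino acid list had a median of 0.06 under JG-98, with 4 called higher and 8 lower, where it had -0.38 before. In that list SLC7A5 differed by -1.0 untreated and -0.57 under JG-98, and CTH by -1.10 and 0.06. The change of the line difference with JG-98 was tested for all genes as an interaction, and 1 gene was called (0.00565%), TXNIP, named after its values were seen, so none of the listed genes had a called interaction.

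**Figure D5:**
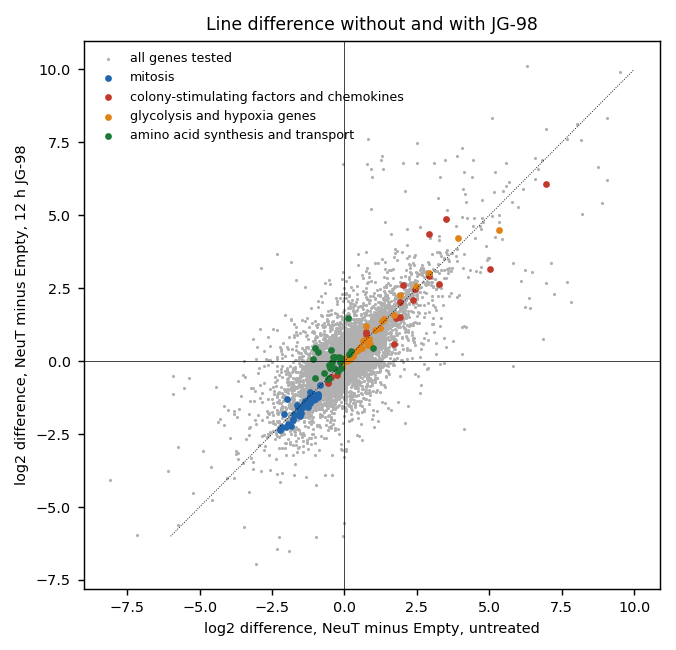
Log2 difference NeuT minus Empty without treatment (x axis) and after 12 h of JG-98 (y axis), 1 point per gene tested, with 4 gene lists in colour and a dotted line of equality. Mitosis genes lie low and chemokines mostly high in both comparisons, with medians of -1.39 and 1.91 without and -1.48 and 2.02 with JG-98, and the amino acid list has medians of -0.38 and 0.06.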

How the data were processed

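Poly(A)-selected RNA of MCF-10A cells was sequenced in 8 libraries, 2 for each of 4 groups. Values are the raw counts for each gene that the authors deposited in 1 table. Per the submitters' processing notes, the tools were Trim Galore 0.5.0, FastQC 0.11.7, HISAT2 2.1.0, SAMtools 1.9, featureCounts 1.6.3 and limma, with the build hg38 (GRCh38). The use of strand, the treatment of reads that match several genes and the annotation release are not given in the sources used here. Without strand, overlapping genes can share reads, so genes with at least 25% of their exonic bases within other genes are marked where named.

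Genes were filtered with edgeR 4.0.16 in R 4.3.3 (filterByExpr, minimum count 10, minimum total 15), scaled by TMM, and fitted with robust quasi-likelihood models over all 8 libraries with 1 coefficient per group. The Benjamini-Hochberg adjustment covered all 17693 genes, and a gene was called under 0.05. Total counts per library ran from 55066802 to 56203768 in the untreated groups. Replicates differed by more than counting error, so the spread between libraries and the depth both limit the precision. On simulated counts for 17560 genes, the test recovered 68 of 100 genes changed by a log2 of 1 and 87 of 100 changed by 2, with 3 false calls. In this simulation 200 genes were changed and all others were not, with dispersions set by the shared trend. Since 42.0% of genes were called in the real data, these figures do not give the power or error of this comparison. DESeq2 1.42.0 and limma 3.58.1 were among the alternatives, with other scalings, filters and left-out libraries.

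The comparison, the 31 lists and the 5 marker lists were chosen with earlier results of these data known, and some genes stand in several lists. Named genes were the 15 largest rises and 15 largest falls among called protein-coding genes that averaged 50 counts or more and did not overlap between lines, up to 6 called members per list in its main direction, 3 in the other and 2 not called, and a fixed panel. GINS2 and the other promoter windows came from a RefSeq table, which held a window for 10673 of 13220 tested protein-coding genes. The authors' tables of drug comparisons were not used, and some genes are not reported here.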

Additional observations from a re-analysis of the deposited data

Results flagged for a closer look

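TXNIP, an inhibitor of thioredoxin and of glucose uptake (ENSG00000265972, chromosome 1, 145992435 to 145996600), was the gene whose difference between the lines changed with JG-98 by the test of that change. Without treatment it was at 149.4 and 154.5 CPM in Empty and 432.1 and 415.4 CPM in NeuT, a log2 difference of 1.48. Under JG-98 it was at 102.8 and 100.4 CPM in Empty and 478.3 and 508.3 CPM in NeuT, a log2 difference of 2.28. The line difference under JG-98 was larger by 0.80 (SE 0.076; edgeR adjusted p-value 1.8e-04 for the interaction, 2 libraries per group). TXNIP was chosen after its values were seen.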

How the results depend on the processing

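The call count was 7391 with DESeq2's size factors in edgeR, 7592 with total counts, 7485 without a filter, 7055 with at least 10 counts in every untreated library, 6811 with DESeq2, 7437 with limma-voom, 7371 without robust estimation, 8690 in a fit of the 4 untreated libraries alone, 5464 under an adjusted p-value of 0.01 and 5461 to 5583 with 1 library left out. Requiring a log2 difference of at least 1 left 1701 genes, 967 higher and 734 lower, of which 1199 were called likewise under JG-98. With the replicate block 7497 genes were called, 3800 higher and 3697 lower, with 5809 shared with JG-98. Replicate differences of the untreated groups correlated at -0.0178 over 9672 genes (-0.102 to 0.246 over pairs of the 4 groups). This cannot show whether replicate numbers pair the samples, since a small shared effect could go unseen.

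List medians are given here less that of all genes. Without a filter it was -1.39 for mitosis and 0.32 for AP-1 genes. With at least 10 counts in every untreated library it was 0.85 for interferon-stimulated genes, 1.00 for complement, 0.17 for keratins, which changed sign, 0.04 for squamous genes, 0.87 for proteases, 0.44 for mesenchymal genes and 0.29 for metallothioneins, with fewer genes tested. In the 4 untreated libraries alone it was 1.95 for complement and 0.44 for mesenchymal genes. With 1 library left out it ran from -0.76 to -0.73 for DNA replication, -1.40 to -1.37 for mitosis, -0.34 to -0.28 for G1 cyclins and CDK inhibitors, 0.45 to 0.50 for p53 targets, 0.24 to 0.33 for ERBB receptors and EGF ligands, 0.71 to 0.75 for ERK output and feedback, 0.31 to 0.35 for AP-1 and immediate early genes, 0.96 to 1.53 for IL-1 family, 0.75 to 0.93 for NF-kB subunits and feedback targets, -0.06 to 0.01 for keratins, 0.18 to 0.24 for squamous differentiation and cornified envelope, 0.91 to 0.99 for matrix proteases and plasminogen system, 0.03 to 0.14 for collagens and matrix proteins, -0.28 to -0.21 for epithelial adhesion and identity, 0.42 to 0.77 for mesenchymal markers and EMT factors, 0.09 to 0.17 for desmosome, -0.01 to 0.08 for luminal and hormone-receptor genes, 0.34 to 0.39 for Notch pathway, 0.10 to 0.13 for TGF-beta and BMP pathway, 0.64 to 0.74 for glycolysis and hypoxia genes, 0.16 to 0.35 for metallothioneins, -0.17 to -0.13 for respiratory chain subunits and 0.18 to 0.24 for cytosolic ribosomal proteins. The lone library of a group is then assumed to vary like the other groups.

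Of 310 named genes tested, the sign of the log2 difference changed only in genes not called. With total counts, which moved the median of all genes to -0.08, these were AEN (-0.04), FOSL1 (-0.03), KLF10 (-0.07), IL11 (-0.05), OAS3 (-0.03), IVL (-0.04), ADAM19 (-0.05), DSG2 (-0.02), GATA3 (-0.06), NOTCH1 (-0.01), SQLE (-0.03), SLC30A1 (-0.07) and RPL4 (-0.03), and with limma-voom IL11 (-0.01). Without Empty replicate 1 these were IL11 (-0.00154), IFIT5 (0.09) and GATA3 (-0.02), and without Empty replicate 2 AEN (-0.02), CFI (0.77, with 32.0% of its exonic bases shared), MMP13 (0.73) and SLC30A1 (-0.04). Without NeuT replicate 1 these were IFIT5 (0.01), ADAM19 (-0.02) and MT1E (0.05), and without NeuT replicate 2 IL11 (-0.26), GATA3 (-0.02), PMEPA1 (0.00404) and SLC30A1 (-0.01). Over the 4 left-out libraries, AEN ran from -0.02 to 0.07, IL11 from -0.26 to 0.28, IFIT5 from -0.11 to 0.09, CFI from -0.91 to 0.77, MMP13 from -0.78 to 0.73 and GATA3 from -0.02 to 0.07. Leaving out 1 library ended 17 to 19 calls of named genes. With total counts, lists without a lower call gained 1 (ERK output, AP-1, laminins, desmosome) or 2 (glycolysis and hypoxia). In the 4 untreated libraries alone there were 2 lower calls for ERK output and 1 each for AP-1, desmosome and glycolysis, and 2 higher calls for the respiratory chain. Without robust estimation ERK output and AP-1 had 1 lower call each, and without a filter laminins and desmosome had 1 each. The cause of these changes was not tested. Depth limits genes with few counts in Empty, whose fitted difference depends on the prior count.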

Other observations

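Several lists were called in both directions or by small margins. Of 24 tested genes of cholesterol synthesis and uptake, 7 were called higher (29.2%, against 21.2% of all genes) and 4 lower (16.7%, against 20.8%), shares near the background. Without Empty replicate 1, NeuT replicate 1 or NeuT replicate 2 there were 2 lower calls, and under JG-98 there were 4 higher and 10 lower. The median of 0.03 became -0.04 with total counts in place of TMM. The sterol demethylation enzyme gene MSMO1 was at 221.4 and 218.4 CPM in Empty and 325.1 and 327.9 CPM in NeuT, a log2 difference of 0.57 (with SE 0.05 and an edgeR adjusted p-value of 9.1e-08), while FDPS, which makes farnesyl diphosphate, was lower (-0.36). Of 11 luminal and hormone-receptor genes, 4 were called higher (36.4%) and 3 lower (27.3%, near the background), with a median of 0.01 that became -0.06 with total counts. The mucin gene MUC1 was at 533.9 and 534.6 CPM in Empty and 1037.8 and 1059.7 CPM in NeuT, a log2 difference of 0.97 (with SE 0.058 and an edgeR adjusted p-value of 6.0e-10), and ESR1 and GATA3 were not called (-0.12 and 0.01, the latter -0.06 with total counts). Of 21 YAP and TEAD targets, 8 were called higher (38.1%) and 6 lower (28.6%, near the background), with 10 lower in a fit of the 4 untreated libraries alone. The median was -0.10, or -0.06 without Empty replicate 1, -0.05 without NeuT replicate 2 and -0.17 with total counts. NT5E, which makes adenosine outside the cell, was higher (1.69), as was IGFBP3 (1.05), while CCN1, a matricellular protein, was lower (-0.85).

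Of 8 tested metallothioneins and related genes, 4 were called higher and none lower, with a median of 0.17 (0.34 without Empty replicate 1, 0.28 with at least 10 counts in every untreated library and 0.10 with total counts). MT1G was at 5.5 and 6.14 CPM in Empty and 15.4 and 15.4 CPM in NeuT, a log2 difference of 1.41 (with SE 0.11 and an edgeR adjusted p-value of 1.3e-08). Cytosolic ribosomal protein genes were called higher in 24 of 44 cases and lower in 1, with a median of 0.20. RPL27 differed by 0.54 and RPL22, the gene called lower, by -0.18, a call lost in each fit without 1 library. Under JG-98 the ribosomal list had 12 higher and 2 lower calls. Without Empty replicate 2 there were 15 higher calls in the untreated comparison and without NeuT replicate 2 there were 16.

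Of 7 endothelial markers, whose summed level was 15.1 and 13.5 CPM in Empty and 11.2 and 10.8 CPM in NeuT, 5 were tested, with 1 called higher and 1 lower. Neither call was kept in every fit that left out 1 library. Of 6 adipocyte markers, summing to 23.4 and 25.5 CPM in Empty and 15.7 and 17.8 CPM in NeuT, 4 were tested, also with 1 called each way, and ADIPOQ and LEP had 0 counts in all 4 libraries. Of the 8 basal epithelial markers, 6 were called higher and 1 lower.

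By gene type, 49.2% of 13220 protein-coding genes were called, 28.7% of 878 lincRNA genes (146 higher, 106 lower), 20.2% of 1073 antisense genes (77 higher, 140 lower) and 14.1% of 1232 processed pseudogenes (83 higher, 91 lower). Antisense genes were called lower more often than higher, and their counts cannot be told apart from those of the opposite gene where strand was not used. The median log2 difference per chromosome ran from -0.07 on chromosomes 13 and 21 to 0.06 on chromosomes 19 and X.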
